A study of Rattus norvegicus with 4 samples.

Results

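The genes described here code for the mitochondrial carriers of solute carrier family SLC25, as expressed in NR8383, a line of rat alveolar macrophages obtained by washing the lung. Members were all non-control probes whose accession maps to a rat gene symbol that starts with Slc25a and a number, so no measured value chose them. This gave 57 probes of 40 genes, out of 21109 named probes of 16579 genes. The cells, after 20 passages, had been incubated for 4 h with TiO2 (NRCWE001), a particulate titanium dioxide, at a dose of 3 cm2/cm2. Total RNA of 4 biological replicates of this one group was measured on one-colour arrays, one each. Unexposed cells were not analysed here, and the values therefore carry no information on what the particles changed. NR8383 is a single line, and differences between replicates and between their arrays cannot be told apart.

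SLC25 carriers are nuclear-encoded proteins that sit, with few exceptions, in the inner mitochondrial membrane and move nucleotides, phosphate, carboxylates, amino acids and cofactors across it. They link the matrix, where the citric acid cycle and oxidative phosphorylation run, with the cytosol. In macrophages the family is known for the citrate carrier, whose exported citrate feeds lipid synthesis, and for the uncoupling protein UCP2. Many carriers exist as paralogs, of which one is used widely and another in few tissues.

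Most of the carriers were detected in these macrophages. All 4 arrays detected 26 of the 40 genes (65%), against 45.7% of all 16579, where a gene counts as detected if a probe of it carries the scanner software's flag for signal well above background. Another 3 genes, Slc25a16, Slc25a33 and Slc25a37, were detected on 1 to 3 arrays (7.5%, against 6.06% of all genes). The remaining 11 were detected on no array (27.5%, against 48.2%), namely Slc25a2, Slc25a18, Slc25a21, Slc25a23, Slc25a27, Slc25a34, Slc25a41, Slc25a43, Slc25a47, Slc25a53 and Slc25a54. Per array, 29, 27, 28 and 27 carriers were detected on replicates 1 to 4. These shares are a description of the family beside all genes, without a test of the list. The gene table also holds 13 protein-coding Slc25a symbols with no probe named here, among them the aspartate/glutamate carrier genes Slc25a12 and Slc25a13, and these were not analysed here.

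**Figure D1:**
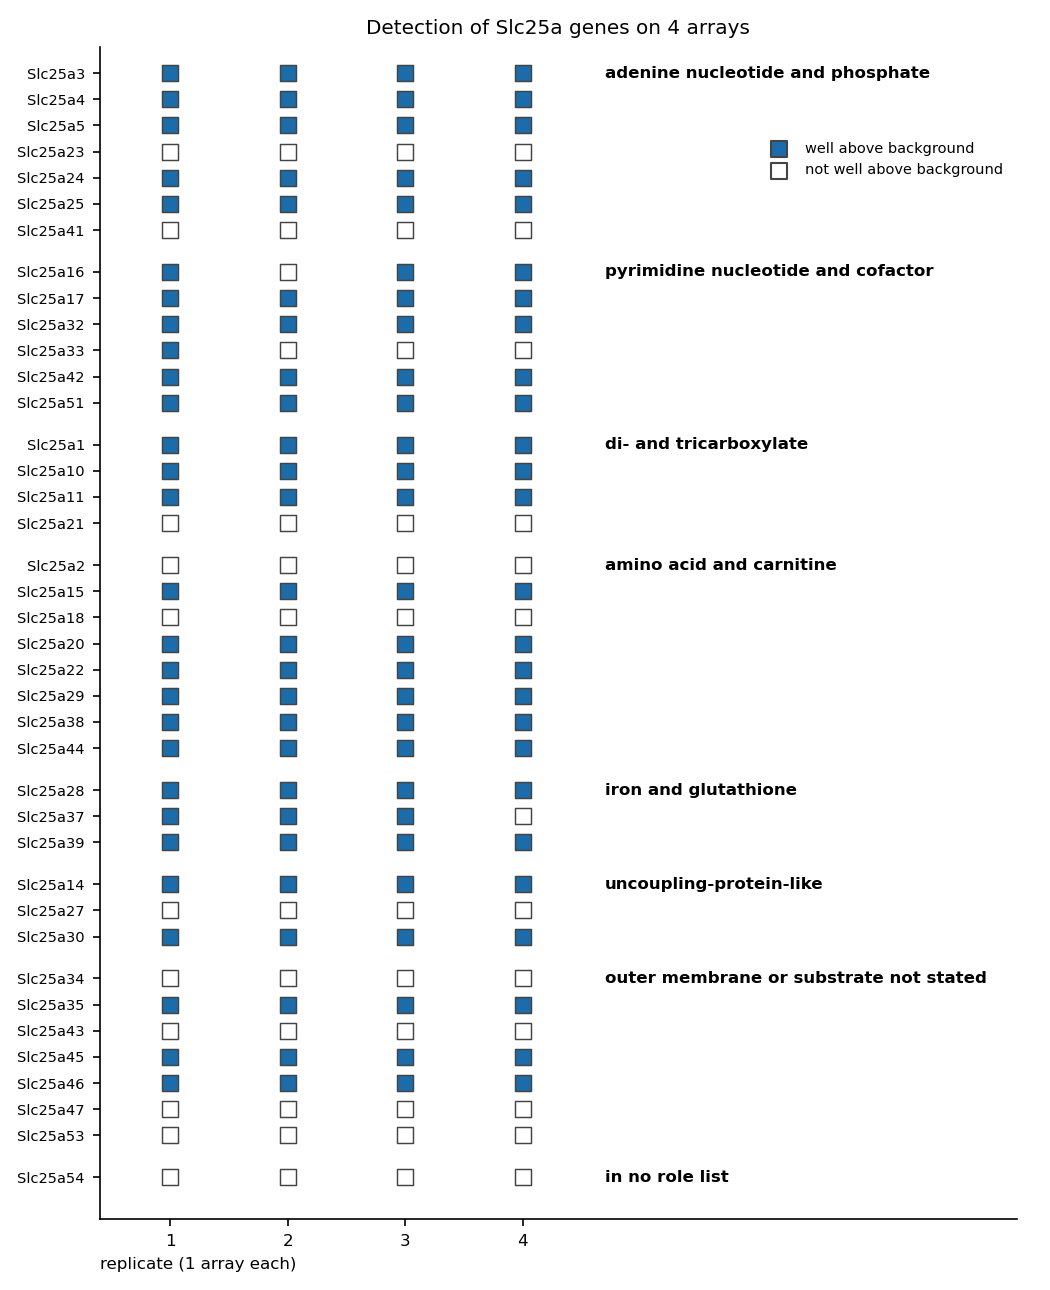
Detection of 39 Slc25a genes (rows, grouped by role) on the arrays of replicates 1 to 4 (columns). Filled squares mark a gene with at least 1 probe well above background and open squares a gene with none; 25 rows are filled throughout, 11 are open throughout and 3 are mixed.

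Depth and identity were checked once. The 75th percentile of the processed signal lay between 347 and 554 intensity units, between 15314 and 16708 probes an array carried the flag, and 0 spots were saturated. Of 14 macrophage markers, 11 were detected on all 4 arrays, among them Cd68 and Csf1r, while Marco, Adgre1 and Cd163 were on none. None of 8 lung epithelial markers was detected on all 4 arrays (2 were on 1 array each), nor was any of 3 measured lymphoid markers (Cd3d was on 3), and of 6 markers of fibroblasts and endothelium only Cdh5 was. Every level below is log2 of the processed signal minus the 75th percentile of its array, for the brightest probe of a gene, and probes were not compared with each other in level. In such bulk RNA, fewer cells that express a gene and less of its RNA per cell cannot be told apart.

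Some carrier genes that lie side by side differed in detection. The gene table places 4 pairs of Slc25a genes next to each other, with no protein-coding gene between them. In 3 pairs 1 gene was detected on all 4 arrays and its neighbour on none: Slc25a24 beside Slc25a54 on chromosome 2, Slc25a29 beside Slc25a47 on chromosome 6, and Slc25a5 beside Slc25a43 on chromosome X. The remaining pair, Slc25a23 and Slc25a41 on chromosome 9, was detected on no array. Of all 12198 pairs of measured protein-coding genes next to each other, 32.8% had 1 gene on all 4 arrays and the other on none. With the more lenient flag for positive and significant signal, Slc25a54 and Slc25a43 were detected on all 4 arrays too, and 1 of the 4 carrier pairs differed in this way, against 15.3% of all pairs. The promoters of the 3 pairs are shown because they set a detected carrier beside a neighbour not well above background, a choice made after the values were seen. They are RefSeq sequences of build GRCr8, from 250 bases before to 50 after the gene's start, read 5′ to 3′ on the gene's strand, with GC boxes (GGGCGG on either strand) in capitals.
Slc25a24, detected, GRCr8 chr2:199449175-199449474, plus strand: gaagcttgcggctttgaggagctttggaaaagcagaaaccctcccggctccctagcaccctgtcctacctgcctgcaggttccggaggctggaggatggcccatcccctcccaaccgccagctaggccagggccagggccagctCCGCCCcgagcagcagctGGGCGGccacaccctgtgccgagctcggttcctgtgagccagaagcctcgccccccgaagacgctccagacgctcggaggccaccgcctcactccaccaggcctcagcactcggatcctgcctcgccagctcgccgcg
Slc25a54, not detected, GRCr8 chr2:199399456-199399755, plus strand: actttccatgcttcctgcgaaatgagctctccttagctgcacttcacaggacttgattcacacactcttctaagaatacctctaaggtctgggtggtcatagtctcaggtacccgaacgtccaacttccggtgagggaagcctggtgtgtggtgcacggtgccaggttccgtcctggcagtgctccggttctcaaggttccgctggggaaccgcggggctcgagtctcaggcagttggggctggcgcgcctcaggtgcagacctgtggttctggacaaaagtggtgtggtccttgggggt
Slc25a29, detected, GRCr8 chr6:133517148-133517447, minus strand: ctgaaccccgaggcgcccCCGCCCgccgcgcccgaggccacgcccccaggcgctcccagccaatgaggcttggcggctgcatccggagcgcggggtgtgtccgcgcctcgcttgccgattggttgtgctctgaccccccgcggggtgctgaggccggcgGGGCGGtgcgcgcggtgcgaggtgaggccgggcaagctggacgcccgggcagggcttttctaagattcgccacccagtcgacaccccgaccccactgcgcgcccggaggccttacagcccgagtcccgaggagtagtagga
Slc25a47, not detected, GRCr8 chr6:133531491-133531790, plus strand: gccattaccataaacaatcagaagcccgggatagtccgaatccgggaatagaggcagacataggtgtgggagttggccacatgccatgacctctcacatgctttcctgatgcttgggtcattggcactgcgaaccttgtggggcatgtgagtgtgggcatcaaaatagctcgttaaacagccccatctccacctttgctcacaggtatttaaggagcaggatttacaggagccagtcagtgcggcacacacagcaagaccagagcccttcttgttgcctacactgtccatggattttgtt
Slc25a5, detected, GRCr8 chrX:120897366-120897665, plus strand: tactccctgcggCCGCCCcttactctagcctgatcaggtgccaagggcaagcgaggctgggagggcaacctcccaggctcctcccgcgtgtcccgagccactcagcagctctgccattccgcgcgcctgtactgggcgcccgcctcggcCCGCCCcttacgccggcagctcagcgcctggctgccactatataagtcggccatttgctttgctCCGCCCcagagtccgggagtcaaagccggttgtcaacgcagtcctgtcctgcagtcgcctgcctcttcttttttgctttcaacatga
Slc25a43, not detected, GRCr8 chrX:120842931-120843230, plus strand: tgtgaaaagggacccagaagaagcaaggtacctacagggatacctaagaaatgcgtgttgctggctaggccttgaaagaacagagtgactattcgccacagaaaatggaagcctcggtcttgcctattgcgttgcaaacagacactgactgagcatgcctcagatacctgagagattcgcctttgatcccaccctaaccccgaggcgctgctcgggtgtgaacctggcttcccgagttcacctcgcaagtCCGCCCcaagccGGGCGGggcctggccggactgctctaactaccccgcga
The detected genes Slc25a24, Slc25a29 and Slc25a5 had 2, 2 and 3 GC boxes, against 0, 0 and 2 in their neighbours Slc25a54, Slc25a47 and Slc25a43, so the pair on chromosome X did not show the contrast of the other pairs. The windows of the detected genes held 20, 37 and 22 CpG dinucleotides, in the same order, against 13, 6 and 16 in those of their neighbours.

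Over the family, the promoters of detected carriers had the higher median number of CpG dinucleotides. RefSeq promoters matched 35 of the 40 genes. The 22 promoters of carriers detected on all arrays held a median of 21.5 CpG dinucleotides in 300 bases (range 6 to 42, highest in Slc25a39), against 9 in the 11 of carriers detected on none (range 2 to 17). The ranges overlapped, from Slc25a15 with 6 at the low end of the detected carriers to Slc25a23 with 17 at the high end of the undetected ones. Among all measured genes the medians were 21 in 6378 genes detected on all arrays and 6 in 6370 detected on none, so the carriers differed in the same direction as all genes did. A GC box stood in 18 of 22 promoters of detected carriers (81.8%) and in 5 of 11 of undetected ones (45.5%), against 63.2% and 33.1% of all measured genes in those classes and 34.9% of all 27457 promoters in the table. The CCAAT box (CCAAT, both strands) was in 54.5% of both carrier classes, against 39.7% of measured genes detected on all arrays and 36.9% of those on none. The ETS core CCGGAAG was in 6 of 22 promoters of detected carriers (27.3%) and in 1 of 11 of undetected ones (9.09%), against 21.0% and 4.29% of measured genes in those classes and 9.22% of all promoters. The other motifs, all searched on both strands, were in few carrier promoters. TGCGCA was in 2 of 22 promoters of detected and 0 of 11 of undetected carriers, against 14.8% and 5.64% of measured genes in those classes (7.68% of all promoters). TGACGTCA was in 1 and 0, against 3.42% and 1.63% (1.91% of all), and CACGTG in 1 and 1, against 9.94% and 5.62% (6.65% of all). TATAAA was in 1 and 0, against 6.90% and 17.6% (14.3% of all). TCAAGGTCA was in 0 of both, against 0.204% and 0.314% (0.412% of all), and TGACNNNGC in 2 and 1, against 15.1% and 11.7% (12.2% of all). Matches of different motifs that overlapped were each counted, and a match describes letters only, with no factor measured.

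**Figure D2:**
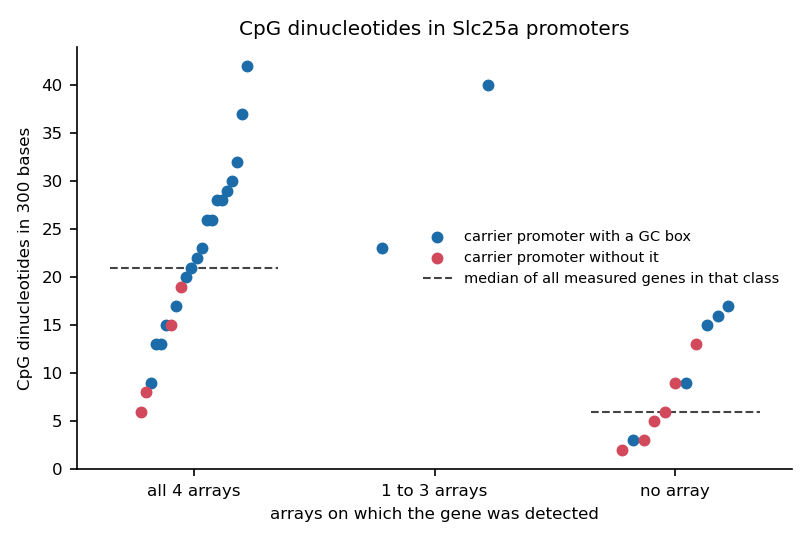
CpG dinucleotides in the 300-base promoter window (y axis) of the 35 Slc25a genes with a promoter entry, by the number of arrays on which the gene was detected (x axis); each point is a gene, blue with and red without a GC box. Dashed lines give the medians of all measured genes in the class, 21 and 6, and most detected carriers lie above the undetected ones, with overlap.

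Genes of phosphate import and ADP/ATP exchange were detected. Of 7 measured adenine nucleotide and phosphate carriers, 5 were detected on all 4 arrays and 2, Slc25a23 and Slc25a41, on none. Of all genes, 45.7% were on all 4 arrays and 48.2% on none. Slc25a5, which codes for an ADP/ATP exchanger of proliferating cells, lay at 4.78, 4.84, 4.56 and 4.85 on replicates 1 to 4 (4.76 ± 0.13, SD, n = 4). Its second probe ran alongside, at 4.67, 4.68, 4.43 and 4.81, so both were lowest on replicate 3. The gene table lists 9 pseudogenes of Slc25a5, and its probes may read some of them. Slc25a4, the ADP/ATP exchanger known from heart and muscle, was also detected, at 1.54, 1.45, 1.54 and 1.30 (1.46 ± 0.11). Its 4 values spanned a narrow range, with the lowest on replicate 4.

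Slc25a3, the carrier that imports phosphate for ATP synthesis, lay at 4.32, 4.44, 4.13 and 3.76 on replicates 1 to 4 (4.16 ± 0.30). Replicate 4 was the low one, with a deviation of -0.40 from the mean, and the spot lies in the last column of the array, column 164. The 70 detected probes of that column had a median deviation of -0.07 on replicate 4, against 0.03 for those of other columns, and the part of position in this value was not tested. Without replicate 4 the level of Slc25a3 was 4.30 ± 0.16 (n = 3).

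The ATP-Mg/phosphate carriers, which set the adenine nucleotide pool of the matrix and of which several are gated by calcium, were split. Slc25a24 was printed on 10 spots per array, more than any other member. Its mean over spots was 1.39, 1.38, 1.40 and 1.77 on replicates 1 to 4 (1.49 ± 0.19, SD between arrays, n = 4), so replicate 4 stood above the others. All 10 spots were highest on replicate 4, by 0.22 to 0.48 over the mean of the other arrays, while the SD between spots of 1 array was 0.09 to 0.13. Such agreement between spots was common, as 550 of 1009 other probes with at least 10 spots also had 1 array highest or lowest on every spot. An SD between arrays at least as large as that of Slc25a24 was found in 274 of these 1009 probes. On replicate 4, the array picked here because Slc25a24 was high on it, 14 of them exceeded their other arrays by as much (0.38, where the median was 0.12). Slc25a25, a paralog, lay at 1.49, 1.22, 1.21 and 1.53 (1.37 ± 0.17), also highest on replicate 4 but with replicate 1 close to it. The paralogs Slc25a23 and Slc25a41 had signals of 3.03 to 3.80 units and were not well above background.

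**Figure D3:**
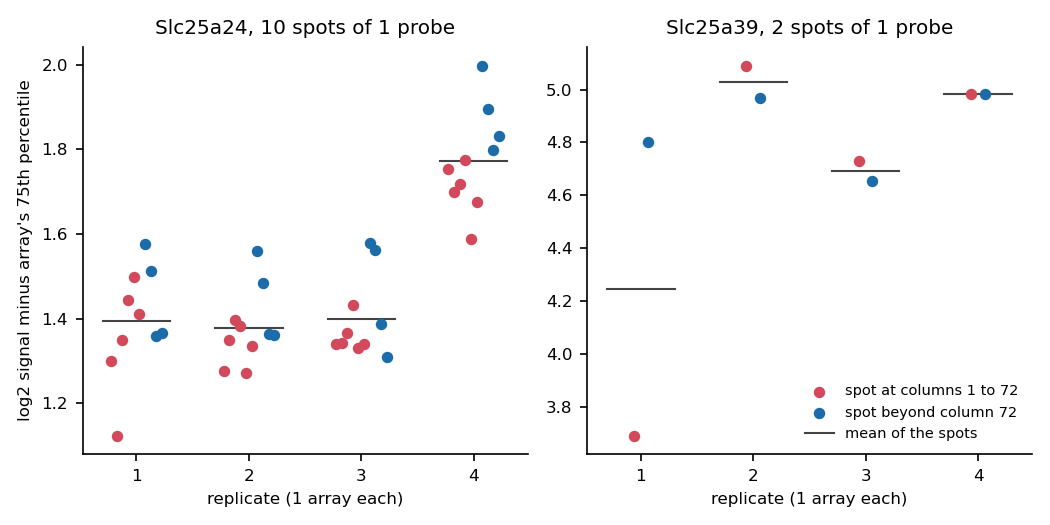
Levels of single spots (y axis, log2 signal minus the 75th percentile of the array) on replicates 1 to 4 (x axis) for the probes of Slc25a24 (left, 10 spots) and Slc25a39 (right, 2 spots); red spots lie at columns 1 to 72 of the array, blue ones beyond, and lines are means. Slc25a24 is higher on replicate 4 at every spot, and Slc25a39 has 1 low spot, at 3.69, on replicate 1.

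Carriers of cofactors were mostly present. Slc25a16 was detected on 3 arrays, Slc25a33 on 1, and the genes below with levels on all 4. Slc25a51, which brings NAD into the matrix, lay at 0.62, 0.42, 0.74 and 0.52 (0.58 ± 0.14) and was highest on replicate 3. All 5 probes of this gene were detected on all 4 arrays, but they differed in the order of the replicates. The 2 probes printed at columns 13 and 15 deviated by -0.34 and -0.26 from their own means on replicate 1, whereas those at columns 142, 153 and 162 deviated there by 0.16, 0.04 and -0.08. All detected genes at columns 1 to 72 had a median deviation of 0.04 on replicate 1, against -0.01 beyond column 72. The part of position in the Slc25a51 values was not tested. Slc25a42, a carrier of coenzyme A, lay at -2.96, -2.17, -2.46 and -2.19 (-2.44 ± 0.37) and was low on replicate 1. With normexp on median signals, another background correction, its SD was 0.23. Its other probe was not well above background on any array. Slc25a16, whose relative in yeast is linked to coenzyme A, had signals of 40.3, 16.8, 52.4 and 36.9 units and missed detection on replicate 2.

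Slc25a17, a member that resides in peroxisomes and carries nucleotide cofactors, lay at 0.16, 0.03, 0.16 and 0.18 (0.13 ± 0.07). Its SD was the smallest of the 26 detected members here. With normexp it was 0.12, and several members had a smaller one, the smallest being that of Slc25a15 (0.04). Slc25a32, a folate and FAD carrier, lay at -2.44, -2.35, -2.58 and -2.24 (-2.40 ± 0.14) and was lowest on replicate 3 with both of its probes. Slc25a33, a pyrimidine nucleotide carrier, had signals of 17.4, 5.76, 12.7 and 14.0 units and was detected on replicate 1 alone, where the lowest spot well above background had 13.5 units.

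Of the di- and tricarboxylate carriers, 3 of 4 were detected on all 4 arrays. Slc25a1, the citrate carrier, lay at 0.44, 0.55, 0.24 and 0.41 (0.41 ± 0.13). Slc25a10, which exchanges malate or succinate for phosphate, lay at 2.09, 2.00, 1.82 and 1.93 (1.96 ± 0.11). Slc25a11, the oxoglutarate carrier of the malate-aspartate shuttle, lay at 2.03, 2.18, 1.92 and 2.21 (2.09 ± 0.14). All 3 were lowest on replicate 3, where all detected genes had a median deviation of -0.08, and had similar, small spreads. With normexp Slc25a1 and Slc25a11 stayed lowest on replicate 3. Slc25a10 was then lowest on replicate 1, at -0.12 from its mean, with -0.02 on replicate 3. Slc25a21, which carries oxoadipate from lysine breakdown, was not well above background with either of its 2 probes, at 3.77 to 5.32 units for the brighter.

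Among amino acid and carnitine carriers 6 of 8 were detected on all 4 arrays (45.7% of all genes), and paralogs differed. Slc25a22, a glutamate carrier, lay at -0.96, -1.09, -1.02 and -0.84 (-0.98 ± 0.11), while its paralog Slc25a18 was on no array (3.31 to 3.98 units). A second Slc25a22 probe was on no array either (3.47 to 3.59 units). Slc25a15, the ornithine and citrulline exchanger next to the urea cycle, lay at -0.32, -0.88, -0.80 and -0.89 (-0.72 ± 0.27), while its paralog Slc25a2 was on no array (3.40 to 4.99 units). Replicate 1 was the high one for Slc25a15, and without it the level was -0.86 ± 0.05 (n = 3). With normexp on median signals the deviation of replicate 1 was -0.01, where it was 0.40 with the processed signal, and the SD was 0.04. The probe used had signals of 188 to 347 units. A second Slc25a15 probe, at 22.4 to 39.5 units, deviated by 0.13, 0.04, 0.12 and -0.28 from its mean. The remaining probe was not well above background on any array (3.00 to 4.17 units). Slc25a29, a carrier of basic amino acids, was detected throughout, at -3.40, -3.53, -4.00 and -3.79 (-3.68 ± 0.27). Its signals were low, at 29.9 to 41.1 units, where the lowest spot well above background had 13.5 to 16.6 units, depending on the array.

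Slc25a20 moves acylcarnitines into the matrix for fatty acid oxidation, and lay at 1.26, 1.27, 1.07 and 1.32 (1.23 ± 0.11). Slc25a38, the glycine carrier that serves haem synthesis, lay at 0.09, 0.01, -0.07 and 0.30 (0.08 ± 0.16), with replicate 4 highest. Slc25a44, which brings branched-chain amino acids into the matrix, lay at 1.66, 1.44, 1.56 and 1.68 (1.59 ± 0.11). Its second probe was well above background on replicate 4 alone.

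Of the iron and glutathione carriers, 2 of 3 were detected on all 4 arrays. Slc25a28 (mitoferrin 2), the widely expressed iron importer, lay at 2.10, 1.94, 1.68 and 1.81 (1.88 ± 0.18) and was highest on replicate 1, which with normexp was the lowest instead, at -0.13 from the mean. Slc25a37 (mitoferrin 1), known from developing red cells, had signals of 31.3, 31.8, 46.7 and 20.5 units and was detected on replicates 1 to 3 but not on replicate 4. Slc25a39, which imports glutathione into mitochondria, lay at 4.25, 5.03, 4.69 and 4.98 on replicates 1 to 4 (4.74 ± 0.36) and was low on replicate 1. That low value came from 1 of its 2 spots, which had 3.69 at column 6, against 4.80 for the spot at column 124 of the same array. All detected genes at columns 1 to 72 had a median deviation of 0.04 on replicate 1, and the part of position was not tested. The same 2 spots had 5.09 and 4.97 on replicate 2, 4.73 and 4.65 on replicate 3, and 4.98 and 4.98 on replicate 4, so they were close together there. With the spot at column 124 alone the level was 4.85 ± 0.16, while a second probe, at column 3, lay at 3.89, 4.09, 3.76 and 4.07 and so was not lowest on replicate 1. The gene table lists 8 pseudogenes of Slc25a39.

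Of the uncoupling-protein-like carriers, Slc25a14 was detected at -1.28, -1.74, -1.84 and -1.70 (-1.64 ± 0.25) and Slc25a30 at -2.37, -2.44, -2.40 and -2.25 (-2.36 ± 0.08). Slc25a14 was high on replicate 1 (0.36 from its mean, with its single spot at column 5), but with normexp that deviation was -0.10, while the values of Slc25a30 lay close together (SD 0.12 under normexp). Slc25a27, known from brain, was on no array with any of its 4 probes. Of the members with no substrate stated here, 3 of 7 were detected on all 4 arrays, near the share of all genes (45.7%). Slc25a46, an outer-membrane protein that acts in mitochondrial shape, lay at -2.53, -2.56, -1.95 and -2.59 (-2.41 ± 0.31) and was high on replicate 3 only, with an SD of 0.16 under normexp. Slc25a45 lay at -1.81, -1.84, -1.97 and -2.03 (-1.91 ± 0.10) and Slc25a35 at -2.83, -2.55, -2.39 and -2.35 (-2.53 ± 0.22), which had an SD of 0.11 under normexp. Slc25a47, known from liver, and Slc25a34, Slc25a43 and Slc25a53 were on no array, and Slc25a54, for which no role was listed, was on none either.

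Absence here means a probe signal not well above background. Among the undetected genes only Slc25a21 (2 probes) and Slc25a27 (4 probes) had more than 1 probe. Of the 11 carriers with several probes, 3 had 1 probe on all 4 arrays and another on none, namely Slc25a15, Slc25a22 and Slc25a42. Whether a single probe missed a transcript that was present was not tested. The 18 probes of the family that were on no array had signals of 2.85 to 14.0 units, while the lowest spot well above background had 13.5 to 16.6 units, depending on the array. Slc25a43 (8.49 to 13.5 units) and Slc25a54 (8.82 to 14.0 units) were the undetected genes nearest to that limit. With a more lenient flag, for signal that is positive and significant, both were detected on all 4 arrays, as were 31 of 40 carriers, against 55.3% of all genes. Slc25a18, Slc25a23, Slc25a41 and Slc25a47 were then the 4 carriers on no array.

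The spread of the carriers between replicates was near that of other genes. The median SD of the 26 members whose brightest probe was detected on all arrays was 0.15 on the log2 scale, against 0.16 for all 7570 such genes. None of the 26 was called more variable than genes of like level by limma's prior variance (adjusted p under 0.05), where 0.515% of the 7570 genes were called. At an unadjusted p under 0.05 there were 2, Slc25a39 (adjusted p = 0.461 by limma) and Slc25a3 (adjusted p = 0.742 by limma), against 6.67% of all genes. Both were called when the background was corrected by normexp on median signals (adjusted p = 0.0352 for Slc25a39 and 0.0362 for Slc25a3 by limma), a setting that called 2.75% of the 7570 genes. The values of Slc25a39 include its low spot on replicate 1. With the processed signal its SD was 0.36 over both spots and 0.16 for the spot at column 124 alone. SDs of the members ran from 0.07 (Slc25a17) to 0.37 (Slc25a42). That no call was made does not show that a carrier is stable, since 4 arrays limit the precision.

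As a group, the carriers had median deviations near those of all detected genes on each replicate. On replicate 3, 5 of 26 carriers (19.2%) lay above their own mean, with a median deviation of -0.08, and all detected genes had a median of -0.08 there too (34.8% above their mean). Median deviations of the carriers were 0.03, -0.01 and 0.09 on replicates 1, 2 and 4, where all genes had 0.00, 0.02 and 0.05. There 65.4%, 46.2% and 61.5% of carriers lay above their own mean, against 51.4%, 56.6% and 62.2% of all detected genes. With the 75th percentile of detected probes as the scale the median deviation of the carriers on replicate 3 was 0.00. The array farthest from the mean was replicate 1 for 6, replicate 2 for 2, replicate 3 for 9 and replicate 4 for 9 of the 26 members, against 23.7%, 15.9%, 37.7% and 22.7% of all detected genes.

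**Figure D4:**
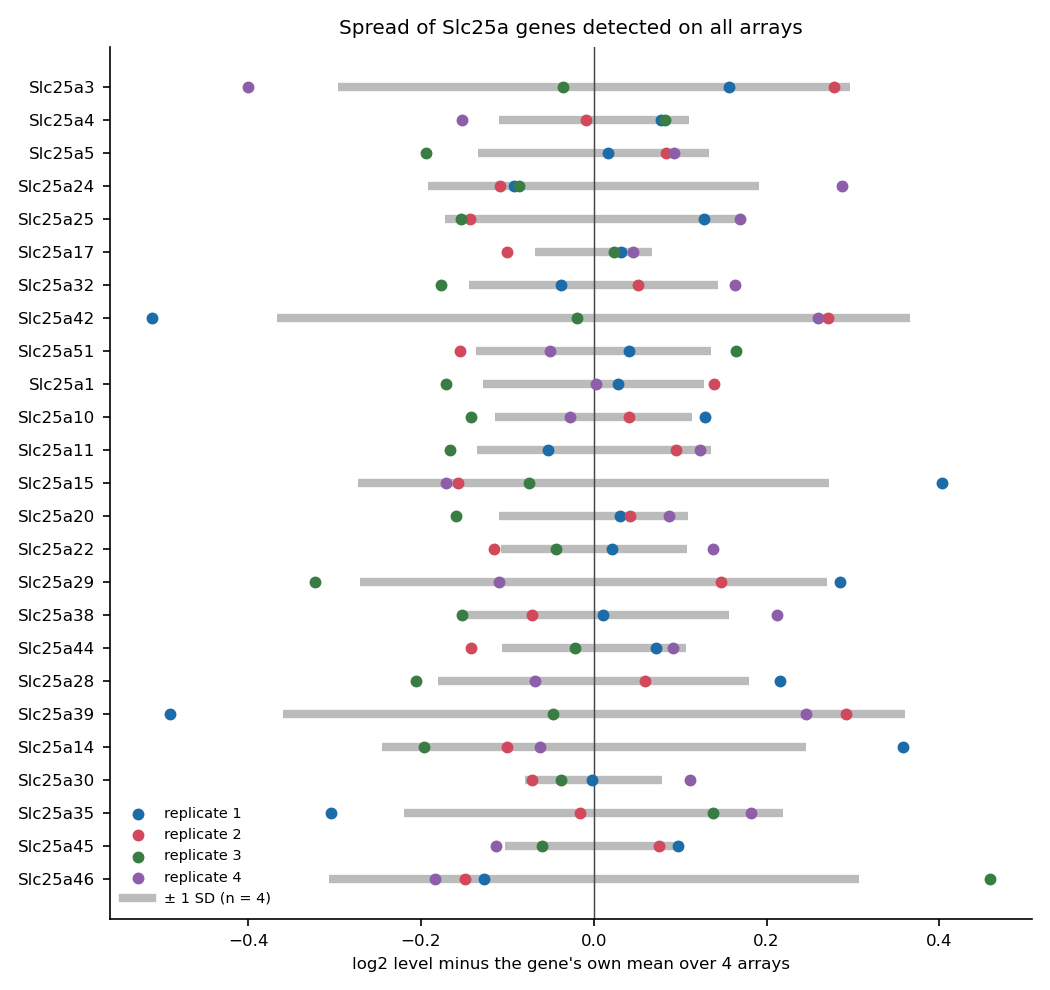
Deviation of each replicate from the gene's own mean (x axis, log2 units) for 25 Slc25a genes detected on all 4 arrays (rows, in the order of roles used above); points are replicates 1 to 4 and grey bars ± 1 SD (n = 4). Slc25a42 and Slc25a39 are low on replicate 1, Slc25a3 low and Slc25a24 high on replicate 4, and Slc25a46 high on replicate 3.

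Genes that work beside the carriers were present with few exceptions. Of 28 measured genes from 6 lists of related mitochondrial transport genes, 23 were detected on all 4 arrays and 5 on none. Of all 16579 genes, 45.7% were on all 4 arrays and 48.2% on none. The lists were made by gene name and were not tested as sets. Among family members with other symbols, Ucp2, an inner-membrane carrier known from macrophages, lay at 2.65 ± 0.19, the outer-membrane proteins Mtch1 at 5.96 ± 0.19 and Mtch2 at 0.21 ± 0.15, while Ucp1, of brown fat, and Ucp3, of muscle, were on no array. The pyruvate carrier subunits Mpc1 (3.38 ± 0.11) and Mpc2 (2.92 ± 0.12) were detected and their testis paralog Mpc1l was not. The outer-membrane pores, through which carrier substrates reach the inner membrane, were all detected, with Vdac1 at 4.90 ± 0.19, Vdac2 at 5.43 ± 0.12 and Vdac3 at 1.22 ± 0.21. All 10 import genes for carrier proteins (Timm22, Timm9, Timm10, Timm10b, Timm29, Agk, Tomm70, Tomm20, Tomm22 and Tomm40) were detected. Of the calcium uniporter genes, Mcu and Micu2 were detected and Micu3 was not, and of the partners Ppif, Hk2 and Hk1 only Hk1 was on no array.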

How the data were processed

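Cells were seeded in 25 cm2 flasks for 48 h, and total RNA of each replicate was hybridised to 1 Cy3 array, per the labels. The deposited intensity values are the processed spot signals, from which the scanner software (Agilent Feature Extraction 11.0.1.1, per the submitters' processing notes) had taken off the background and a spatial trend, per the file headers. Arrays were not scaled to each other. They hold 62976 spots each, 58717 of them other than controls.

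Outlier spots (non-uniform or population, 634 to 669 an array) were dropped. A level is log2 of the processed signal less the 75th percentile of log2 signals on that array, averaged over the spots of a probe. Probe accessions without versions were looked up in the RefSeq gene table of GRCr8, which named 21109 of 45598 probes. Detection of a probe required the flag on more than 0.5 of its spots. A gene took its level from its brightest probe.

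To test the spread, the variance of each gene (3 degrees of freedom) was divided by the trended, robust prior variance of limma 3.58.1 in R 4.3.3 (24.3 prior degrees of freedom). P-values from the upper tail of F were adjusted over 7570 genes by the Benjamini-Hochberg method. The procedure was also run on data simulated from the fitted prior, which cannot show whether that prior suits these arrays. The p-values measure the spread between these samples, which may be technical in part. Counts cover all members; single values of 1 member and of 1 listed gene are not reported here. The other members are all named, with its value on each array if detected on any, and otherwise with the range of its signals where these are given. The members, roles and lists were chosen with earlier results of these data known. Alternatives were a lenient flag, other array scalings, normexp on median signals with an offset of 50, other probe rules, outlier spots kept, the left of the array dropped, and single replicates dropped; the 75th percentile of detected probes as a scale was added after seeing the data.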

Additional observations from a re-analysis of the deposited data

Results flagged for a closer look

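In 4 of 26 detected carriers (15.4%) the highest or lowest replicate had a gap to the next one that was larger, as a share of the range, than Dixon's critical value for 4 samples. Chance flags about 1 in 20 groups (5%), and 5.46% of all 7570 detected genes met the same limit. Slc25a24 had a ratio of 0.946, with replicate 4 the high one on all 10 of its spots. Slc25a46 had 0.911, with replicate 3 high on its single spot, and lay at -2.56 ± 0.03 (n = 3) without it. Slc25a17 had 0.856, although its range was small, with replicate 2 low, and Slc25a15 had 0.833, with replicate 1 high on a spot at column 26. With normexp on median signals the ratio of Slc25a24 was 0.870, and those of Slc25a46, Slc25a17 and Slc25a15 were 0.582, 0.629 and 0.401, below the critical value. None of the 4 was called more variable by limma's prior variance, with adjusted p of 0.908 to 0.997.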

How the results depend on the processing

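Detection on all 4 arrays held for 26 carriers and for 26 to 31 under the other rules, including 26 to 27 when a replicate was left out. The number on no array was 11, and 4 with the more lenient flag, which lowers the limit by its construction; it was 11 or 12 under the other rules. With normexp on median signals 2 carriers were called more variable, Slc25a39 (adjusted p = 0.0352 by limma) and Slc25a3 (adjusted p = 0.0362 by limma), where 208 genes were called over the whole array against 39 with the processed signal; the cause was not tested. Under every other alternative that was run 0 carriers were called, with a lowest adjusted p of 0.251 to 0.845. Over all genes the 39 calls by limma became 127 of 16579 with no filter on detection, 77 without replicate 2, 19 with quantile normalization, 16 without replicate 4, 10 without replicate 3 and 5 of 3984 without columns 1 to 72. They became 0 with the 75th percentile of detected probes as scale (403 at an unadjusted p under 0.05) and with no trend in the prior (467). The median SD of the carriers was 0.13 to 0.17 when a replicate was left out, 0.14 without the genes at columns 1 to 72, 0.17 over the 29 carriers detected on at least 1 array and 0.26 over all 40. With normexp the SDs of 8 of 26 carriers moved, and 3 of the 4 carriers with a single outlying replicate no longer had one; the cause was not tested. Scales made from detected probes shifted the mean levels of all carriers by a constant (0.56 for the median and -1.72 for the 75th percentile). Keeping outlier spots did so too (-0.16), and such shifts of level say nothing of single genes. Single SDs could still change: 4 of 26 moved with the 75th percentile of detected probes as scale. With the median as scale, or with outlier spots kept, 0 SDs moved. Other mitochondrial transport genes were detected in 23 cases under each alternative. No paired analysis was possible because there is 1 group. Signals near background limit what can be said of the 11 undetected carriers, of which only Slc25a21 and Slc25a27 had more than 1 probe.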
